A study of Mus musculus with 24 samples.

Results

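The 28 genes described here encode enzymes that build cholesterol and fatty acids, the transcription factors that switch those enzymes on, and proteins that sense or carry sterols. They were chosen by gene name as members of SREBP-controlled lipid synthesis. All 28 were found among the 45706 genes of the deposited table, and all 28 were among the 17233 genes left for testing by a filter on low counts. They comprise 18 enzymes of the mevalonate and sterol pathway, 5 regulators or carriers (Srebf1, Srebf2, Scap, Insig1 and Stard4) and 5 fatty acid enzymes (Acly, Acaca, Fasn, Scd1 and Scd2). The cells were primary mouse embryonic fibroblasts (MEFs), grown out of dissociated embryos of the strain labelled C57B1/6. They either lacked cGAS, a sensor of DNA in the cytosol (KO), or were wild type (WT). Both genotypes were kept in 20% oxygen, and bulk RNA was sequenced on day 33 (passage 11), day 36 (passage 12) and day 42 (passage 14), a series whose title is about cGAS and senescence, in which stressed cells stop dividing for good. The 6 groups were thus KO day 33, KO day 36 and KO day 42, and WT day 33, WT day 36 and WT day 42, and the labels do not say how many embryos or culture lines each genotype came from.

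Cholesterol is built from acetyl-CoA through the mevalonate pathway, which leads to squalene and then to lanosterol, and lanosterol is trimmed step by step into cholesterol. The genes for these steps are switched on by the SREBP transcription factors, which Scap escorts out of the endoplasmic reticulum when membrane sterol is low and which Insig proteins hold back when sterol is plentiful. SREBP-2, encoded by Srebf2, is best known for driving sterol genes and SREBP-1, encoded by Srebf1, for driving fatty acid genes, and dividing fibroblasts need both products for new membrane.

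Most of the 28 genes were at their lowest on day 42 and, among the KO libraries, at their highest on day 36. The KO library of day 36 was the highest of the 6 for 20 of the 28 genes, which was the case for 16.0% of all tested genes. A library of day 42 was the lowest of the 6 for 27 of the 28 genes, against 44.5% of all tested genes, and for 17 of the 28 it was the KO library, against 19.6%. Day 42 was the lowest KO library for 27 of the 28 genes (34.8% of all tested genes), the lowest WT library for 25 (42.4%), and the lowest in both genotypes for 24 (20.0%). Between KO and WT, Acaca was the one gene of the 28 that passed the genotype test over all genes.

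The 4 numbered columns deposited for each genotype and day differed by no more than about the sampling noise and were counted as 1 sample, which left 6 libraries, 3 per genotype, with 1 per genotype and day. P-values therefore measure the spread between these libraries, with days serving as replicates, and nothing in the labels says that the libraries come from separate cultures. The libraries held 25650577 to 36447008 counts in KO and 35024528 to 48716880 counts in WT. Mb21d1, which encodes cGAS, was at 0.0179 to 0.231 CPM (the count scaled by the library total) in KO and at 3.78 to 4.80 CPM in WT. The 10 fibroblast markers summed to 53200 to 60600 CPM in KO and 53300 to 59500 CPM in WT, sums led by Fn1 and Col1a1. Gene by gene, 9 of the 10 had a log2 fold change of KO over WT below 0, with a median of -0.66, and S100a4 fell (-0.92 ± 0.13, adjusted p = 0.0133 by edgeR), a call lost without KO day 36, KO day 42 or WT day 33. Dcn (-2.78), Pdgfra (-1.63) and Thy1 (-1.12) did not pass. Xist lay at 476 to 693 CPM in KO and at or below 0.348 CPM in WT, while Y-linked Uty lay at 2.88 to 3.03 CPM in KO and 27.7 to 30.7 CPM in WT, so genotype and the sex of the culture cannot be told apart. In bulk RNA, fewer cells of a type and less RNA per cell cannot be told apart either.

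The promoters of 4 of the genes are shown because the results below turn on them. Hmgcs1, which makes HMG-CoA early in the pathway, was the most abundant sterol enzyme per length. Among the genes with a RefSeq promoter, it is the only one with a match to the sterol regulatory element core. Insig1 had the largest single difference between days, Msmo1 had the steepest fitted change with day, and Acaca passed the genotype test. Each sequence is RefSeq's window from 250 bases before to 50 bases after a transcription start, on build GRCm38.p6, written 5′ to 3′ on the gene's strand. These starts differ from the deposited ones. Those of Insig1 and Msmo1 lie slightly inside the deposited gene, that of Hmgcs1 lies before it, and that of Acaca lies far inside. Capitals mark 3 motifs searched on both strands, TCACNCCAC (the sterol regulatory element core bound by SREBPs), CCAAT (the box bound by NF-Y) and GGGCGG (the GC box bound by Sp factors), or their reverse complements, and neighbouring motifs may abut or overlap.
Hmgcs1, chr13:119690101-119690400, plus strand: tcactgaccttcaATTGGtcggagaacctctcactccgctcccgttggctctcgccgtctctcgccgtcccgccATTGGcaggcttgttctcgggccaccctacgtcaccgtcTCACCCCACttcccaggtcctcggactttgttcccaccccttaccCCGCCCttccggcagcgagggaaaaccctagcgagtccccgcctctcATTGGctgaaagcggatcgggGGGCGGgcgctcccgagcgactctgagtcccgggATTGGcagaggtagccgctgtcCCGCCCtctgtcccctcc
Insig1, chr5:28071162-28071461, plus strand: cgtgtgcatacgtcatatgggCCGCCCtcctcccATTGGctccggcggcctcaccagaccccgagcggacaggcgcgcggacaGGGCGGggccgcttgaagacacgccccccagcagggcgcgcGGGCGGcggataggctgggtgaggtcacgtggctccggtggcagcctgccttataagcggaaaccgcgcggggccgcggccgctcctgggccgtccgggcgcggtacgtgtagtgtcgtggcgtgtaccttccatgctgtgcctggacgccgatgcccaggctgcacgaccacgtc
Msmo1, chr8:64733529-64733828, minus strand: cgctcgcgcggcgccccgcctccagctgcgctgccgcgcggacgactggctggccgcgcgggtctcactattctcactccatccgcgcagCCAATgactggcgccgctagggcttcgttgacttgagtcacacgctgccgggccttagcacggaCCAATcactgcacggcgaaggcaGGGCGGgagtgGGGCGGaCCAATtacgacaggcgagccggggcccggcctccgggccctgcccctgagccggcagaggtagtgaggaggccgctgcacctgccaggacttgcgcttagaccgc
Acaca, chr11:84195188-84195487, plus strand, at a start inside the deposited gene: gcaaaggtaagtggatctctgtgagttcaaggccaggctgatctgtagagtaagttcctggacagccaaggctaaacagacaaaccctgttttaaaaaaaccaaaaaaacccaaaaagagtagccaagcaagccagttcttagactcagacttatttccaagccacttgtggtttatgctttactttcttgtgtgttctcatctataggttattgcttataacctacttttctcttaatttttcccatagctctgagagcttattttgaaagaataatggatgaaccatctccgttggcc

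RefSeq's table held a promoter for 22 of the 28 genes, 28 windows in all because several genes have more than one start. It held none for Fdps, Fdft1, Sqle, Scd1, Scd2 and Stard4. The core TCACNCCAC was found in 1 of the 22 genes, Hmgcs1. That was 3.57% of their windows, against 1.24% of the 32851 promoters in the table and 1.15% of the promoters of tested genes. CCAAT was found in 19 of the 22 genes, and in 71.4% of their windows against 37.4% of all promoters. The 3 genes without CCAAT in any window were Acaca, Acat2 and Scap. GGGCGG was likewise found in 19 of the 22 genes, and in 78.6% of their windows against 35.7% of all promoters and 60.7% of the promoters of tested genes. The 3 genes without GGGCGG in any window were Acaca, Fasn and Pmvk. The only window of Acaca, at 84195188 to 84195487, lies far inside a gene deposited as starting at 84129670. The region before that deposited start was not searched, so the missing matches of Acaca concern an internal start alone. These matches describe letters in a window and were not tested as binding sites.

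Levels were compared between genes as CPM per kilobase of gene length. Scd2, a desaturase that makes oleate-type fatty acids, had the highest level, at 291, 317 and 183 CPM per kilobase in KO on days 33, 36 and 42 and 208, 208 and 165 CPM per kilobase in WT on the same days. Hmgcs1 followed with a mean of 95.2 ± 25.2 CPM per kilobase (SD over the 6 libraries), and Acly, which supplies cytosolic acetyl-CoA, with 80.6 ± 12.4. The libraries of Scd2 lay above all of those of Hmgcs1, whereas Hmgcs1 and Acly did not separate beyond their spread. Fasn, the fatty acid synthase, Scd1, a second desaturase, and Cyp51, which removes a methyl group from lanosterol, lay between 49.4 and 53.8 CPM per kilobase. Among the regulators, Srebf2 was at 41.6 ± 8.67 CPM per kilobase and Srebf1 at 15.5 ± 2.71, with no overlap between the genes in any library. The lowest levels were those of Fdps at 1.83, Tm7sf2 at 3.47 and Acaca at 5.0 CPM per kilobase. Gene lengths in the file join all exons of a gene, so that a gene with long rare exons, such as Lss at 10423 bases, has its level understated. Acaca was scaled by 17133 bases while its longest coding transcript has 9513, so its low rank is uncertain.

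**Figure D1:**
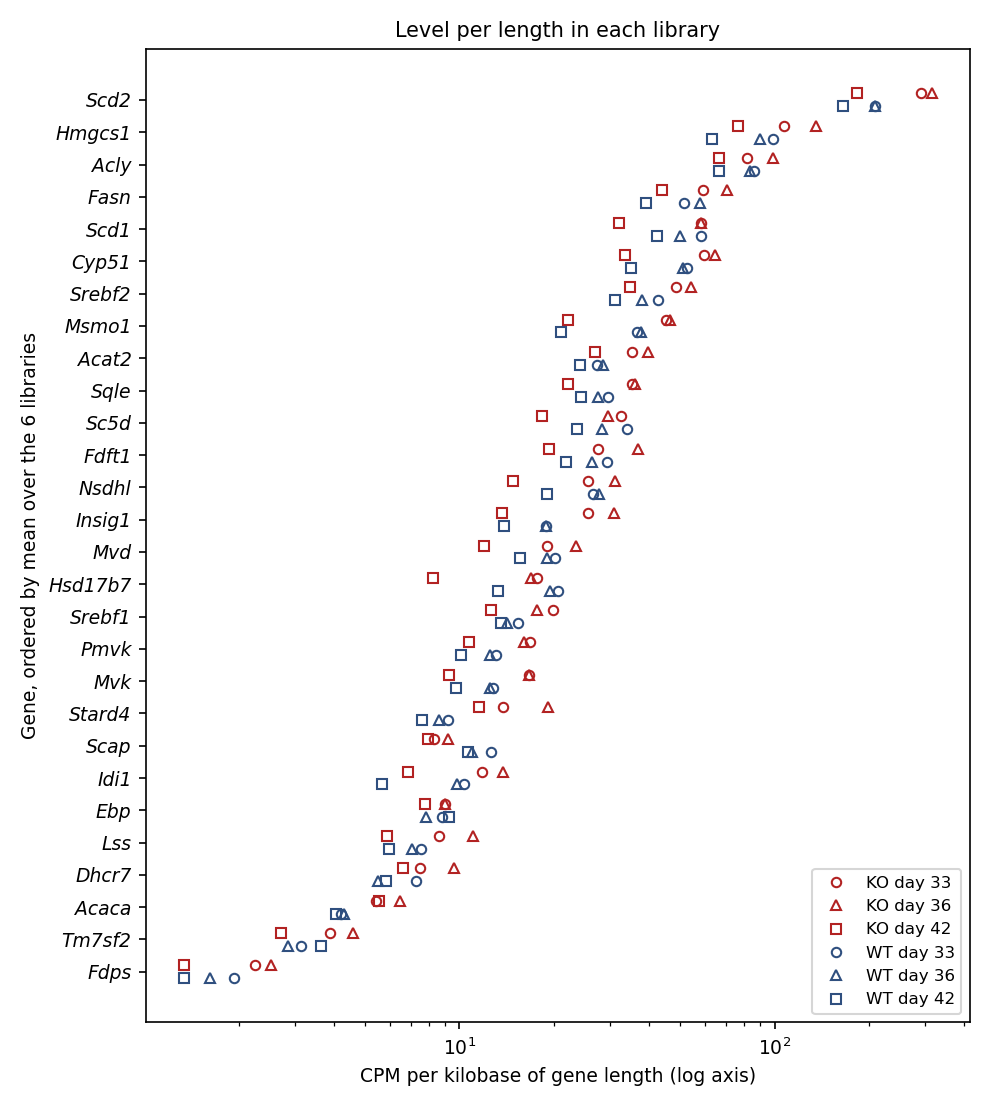
CPM per kilobase of gene length (log axis) of the 28 genes in the 6 libraries, with KO in red, WT in blue, and circles, triangles and squares for days 33, 36 and 42. Genes are ordered by their mean, from Scd2 at the top to Fdps at the bottom, and the day 42 squares lie to the left of the other symbols of their genotype for 24 genes in both genotypes.

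The early mevalonate enzymes were at their lowest on day 42 in both genotypes. Hmgcs1 (ENSMUSG00000093930, chr13:119690460-119708086 on mm10 as deposited) was at 348, 439.7 and 249 CPM in the KO libraries of days 33, 36 and 42, and at 319.8, 291 and 206 CPM in the WT libraries. Both day 42 libraries were thus the lowest of their genotype, and KO exceeded WT on each day although the 3 KO values overlapped the 3 WT values. Idi1, which isomerises the 5-carbon isoprene unit, was at 41.5, 48.3 and 24 CPM in KO and 36.3, 34.5 and 19.9 CPM in WT. Acat2, which joins acetyl-CoA units, Mvk and Pmvk, the kinases of mevalonate, and Mvd, which decarboxylates the product, ranged from 18.4 to 101 CPM in KO and 17.4 to 72.9 CPM in WT, and in each of them day 42 was the lowest day in both genotypes.

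Among the squalene and sterol-trimming enzymes, Msmo1, a methyl sterol oxidase (chr8:64718137-64733792 as deposited), was at 278, 287 and 136 CPM in KO and 225, 231 and 129 CPM in WT. Days 33 and 36 were alike within each genotype, and day 42 stood apart in both. Cyp51 was at 254, 275 and 143 CPM in KO and 224, 219 and 149 CPM in WT, and Sqle, which makes the epoxide of squalene, was at 196, 200.1 and 123 CPM in KO and 164, 153 and 135 CPM in WT. Hsd17b7, a sterol ketone reductase, had 89.9, 86.5 and 42.1 CPM in KO and 105, 99.0 and 67.8 CPM in WT, so that KO was below WT on each day. Nsdhl, a sterol dehydrogenase, was at 72.9, 89.3 and 42.2 CPM in KO and 76.0, 79.6 and 54.2 CPM in WT, and KO exceeded WT on day 36 alone.

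Of the sterol enzymes, 3 were not at their lowest on day 42 in WT. Ebp, a sterol isomerase, was at 20.8, 20.8 and 18.0 CPM in KO and 20.4, 18.1 and 21.4 CPM in WT. Tm7sf2, a sterol reductase, was at 11.5, 13.6 and 8.04 CPM in KO and 9.29, 8.46 and 10.8 CPM in WT, so that its WT library of day 42 was the highest of the WT libraries. Dhcr7, a reductase of the last steps to cholesterol, was at 28.5, 36.4 and 25.1 CPM in KO and 27.6, 21.0 and 22.3 CPM in WT, and was the one gene of the 28 whose lowest library was not from day 42.

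Among the regulators, Insig1, which retains SREBPs and is itself an SREBP target, was at 79.1, 96.1 and 42.2 CPM in KO and 58.1, 58.2 and 43.0 CPM in WT (chr5:28071361-28078662 as deposited). KO stood above WT on days 33 and 36, and the genotypes met on day 42. Srebf2 was at 243, 271 and 174 CPM in KO and 213, 191 and 156 CPM in WT. Srebf1 was at 108, 96.3 and 68.7 CPM in KO and 84.0, 77.8 and 74.3 CPM in WT, which put KO above WT on the first 2 days and below it on day 42. Scap, the SREBP escort, was at 54.0, 59.6 and 51.4 CPM in KO and 81.5, 71.2 and 69.2 CPM in WT, with no overlap. Stard4, which carries cholesterol between membranes, was at 77.1, 107 and 64.8 CPM in KO and 51.6, 48.1 and 42.7 CPM in WT, again with no overlap, and here KO was the higher genotype.

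Among the fatty acid enzymes, Scd2 was at 1571, 1710 and 987 CPM in KO and 1125, 1123 and 891 CPM in WT. Scd1 was at 284, 282 and 155 CPM in KO and 283, 243 and 206 CPM in WT, so the genotypes matched on day 33, and KO was the lower one on day 42. Fasn was at 585, 701 and 435 CPM in KO and 512, 572 and 386 CPM in WT, and Acly at 433, 524 and 353 CPM in KO and 458, 445 and 354 CPM in WT. Acaca, the acetyl-CoA carboxylase of the cytosol, was at 93.2, 111 and 94.9 CPM in KO and 72.1, 73.5 and 69.7 CPM in WT. Its largest difference between successive days was 0.25 on the log2 scale, in KO, and its 3 KO values lay above its 3 WT values.

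**Figure D2:**
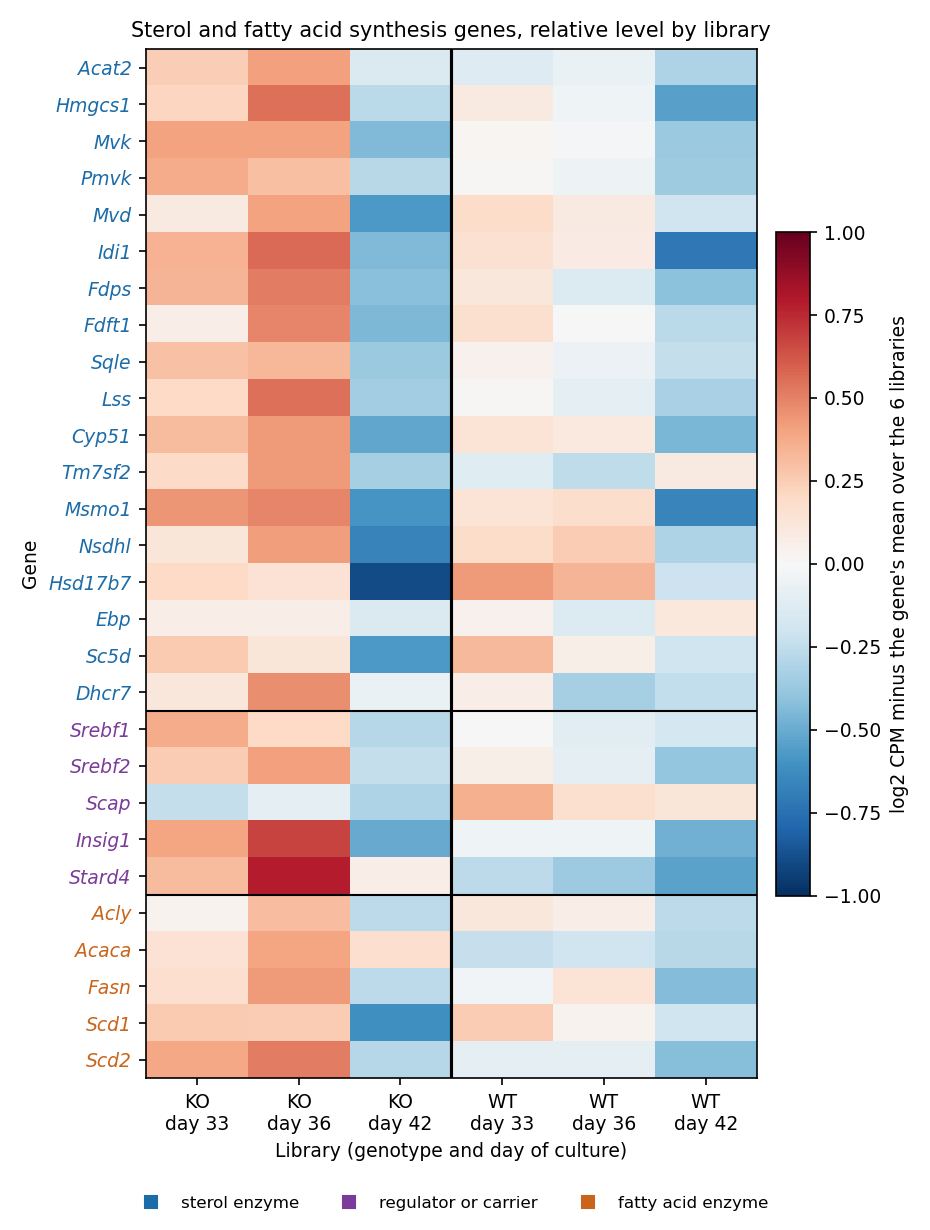
Level of each of the 28 genes in each library, as log2 CPM minus the gene's mean over the 6 libraries, with KO libraries on the left and WT libraries on the right. Red is above the gene's mean and blue below it: the KO day 36 column is the reddest, being the highest library for 20 genes, and both day 42 columns are mostly blue, a day 42 library being the lowest for 27 genes.

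Between single libraries no test was possible, and differences are given on the log2 CPM scale, with a difference counted when it reached 2-fold and the higher library reached 5 CPM. In KO, day 42 was lower than day 36 for all 28 genes, against 51.4% of all genes, with a median of -0.77, while the median of all genes reaching 5 CPM was close to 0 at -0.0075. At least 2-fold lower were 5 of the 28 genes, against 0.491% of all genes: Insig1 (-1.19), Nsdhl (-1.08), Msmo1 (-1.08), Hsd17b7 (-1.04) and Idi1 (-1.0). The smallest KO differences between these days were those of Ebp (-0.21), Scap (-0.21) and Acaca (-0.22). In WT, day 42 was lower than day 36 for 25 of the 28 genes, against 51.7% of all genes, with a median of -0.28, and 0 of the 27 genes reaching 5 CPM were 2-fold lower, against 2.48% of all genes. Msmo1 (-0.84) and Idi1 (-0.79) had the largest WT differences.

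Between day 33 and day 36 the medians of the genotypes had opposite signs, a difference that was not tested. In KO, day 36 was above day 33 for 22 of the 28 genes, with a median of 0.17, whereas 52.6% of all genes were higher. The largest of these differences were Stard4 (0.47), Fdft1 (0.42), Lss (0.36) and Dhcr7 (0.35), where Fdft1 makes squalene and Lss closes its rings into lanosterol. In WT, day 36 was above day 33 for 6 of the 28 genes, with a median of -0.09, whereas 52.1% of all genes were higher. None of the 28 genes reached 2-fold in either genotype between these days, against 1.09% of all genes higher and 2.33% lower in KO, and 0.326% higher and 0.995% lower in WT. The KO library of day 36 was also the smallest of the 6, with 25650577 counts, and the part of its depth in these values was not tested.

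**Figure D3:**
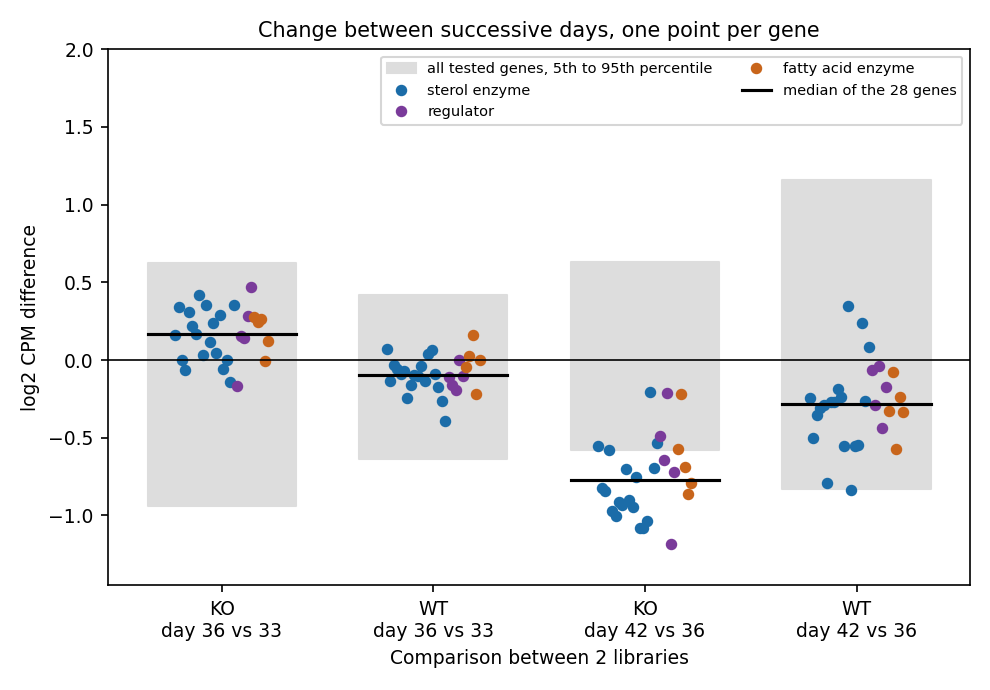
Difference in log2 CPM between successive days in each genotype, one point per gene, with enzymes of sterol synthesis in blue, regulators in purple and fatty acid enzymes in orange; black lines are medians of the 28 genes and grey bands span the 5th to 95th percentile of all tested genes. For KO day 42 against day 36 the median is -0.77 and most points lie below the grey band, while for WT on the same days the median is -0.28 and most points lie inside it.

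A trend fitted with day over both genotypes asked whether the genes moved with time in culture. Its values are log2 changes over the 9 days between day 33 and day 42, ± SE. The fitted change was below 0 for all 28 genes, against 49.9% of all tested genes, and its median was -0.53, against 0.00076 over all tested genes. The edgeR quasi-likelihood test with Benjamini-Hochberg adjustment called 0 genes in the whole table (0.0%), and so 0 of the 28. At an unadjusted p below 0.05 stood 18 of the 28 genes, all with a change below 0, against 7.31% of all tested genes below 0 at this level, and 14.7% in either direction. The steepest fitted changes were those of Msmo1 (-1.0 ± 0.20, adjusted p = 0.268 in edgeR), Idi1 (-0.91 ± 0.21, adjusted p = 0.275) and Hsd17b7 (-0.90 ± 0.18, adjusted p = 0.268). The flattest were Acaca (-0.04 ± 0.12) and Ebp (-0.05 ± 0.13). By role, the medians were -0.61 for the 18 sterol enzymes, -0.41 for the 5 regulators and -0.50 for the 5 fatty acid enzymes.

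The size of the trend rested partly on 1 library. Without the KO library of day 42, 25 of the 28 genes had a fitted change below 0, the median was -0.31 and 5 genes had an unadjusted p below 0.05. DESeq2 called 8 of the 28 genes, all lower with day, against 2.7% of all tested genes (465 genes). With day as a factor, a fit chosen after the data were seen, day 42 minus day 36 had an unadjusted p below 0.05 for 22 of the 28 genes, against 12.8% of all tested genes, and edgeR again called 0 genes. Macrophage markers also moved with day: their sum over 10 genes was 63.8, 3.80 and 3.52 CPM in KO and 139, 26.7 and 7.42 CPM in WT on days 33, 36 and 42. All 9 tested markers had a fitted change below 0 at an unadjusted p below 0.05, C1qa, C1qb and C1qc were at 0 in KO on day 42, and the part of these cells in the trend was not tested. Scaled by the library total alone, as the marker sums were, the 28 genes summed to 5260, 6200 and 3810 CPM in KO and 4360, 4090 and 3390 CPM in WT.

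Whether the trend differed between genotypes was tested as an interaction of genotype and day with 2 residual degrees of freedom. By edgeR 0 genes were called in the whole table (0.0%), and 0 of the 28 by DESeq2, which called 129 genes in all (0.749%). Over the 28 genes the difference, KO minus WT, was below 0 for 23, against 49.8% of all tested genes, with a median of -0.31. Srebf1 was the single gene of the 28 with an unadjusted p below 0.05, against 7.74% of all tested genes (difference -0.50 ± 0.18 on the log2 scale, adjusted p = 0.627 by edgeR). Without the KO library of day 42 the median turned to 0.92, with 26 of the 28 genes above 0, so the sign of this difference depended on that library. Without the KO library of day 33 the median was -0.76, with 0 of the 28 genes above 0 and 9 at an unadjusted p below 0.05.

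Over the 3 days, KO was compared with WT to ask which of the genes differ when cGAS is lacking. Acaca rose in KO, to 99.6 ± 9.63 CPM against 71.8 ± 1.96 CPM in WT (SD, n = 3 libraries each). Its log2 fold change was 0.47 ± 0.09 (SE), with an adjusted p of 0.032 by edgeR's quasi-likelihood test, and KO was higher on 3 of 3 days. It was the 1 called gene of the 28, where 8.72% of all tested genes were called, 4.07% higher and 4.65% lower. The call was lost in edgeR fits that left out 1 library, with an adjusted p of 0.114 when KO day 36 was dropped, 0.0921 when it was KO day 42, 0.124 when it was WT day 33 and 0.0781 when it was WT day 36.

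Stard4 and Scap came next and did not pass. Stard4 averaged 82.9 ± 21.6 CPM in KO and 47.5 ± 4.52 CPM in WT (SD, n = 3 libraries each), a log2 fold change of 0.80 ± 0.19 with an adjusted p of 0.0526 by edgeR. Scap averaged 55.0 ± 4.2 CPM in KO and 74.0 ± 6.57 CPM in WT, a log2 fold change of -0.43 ± 0.10 with an adjusted p of 0.0518 by edgeR. With DESeq2 on the same libraries, 3 of the 28 genes passed, namely Acaca, Stard4 and Scap, while 16.6% of all tested genes did. These 3 genes were also the ones whose KO and WT libraries did not overlap: 2 of the 28 were higher in all KO libraries, against 17.2% of all tested genes, and 1 was lower, against 17.1%. At an unadjusted p below 0.05 stood 3 of the 28 genes, against 27.3% of all tested genes. This edgeR fit held genotype alone, without day. With day as a factor beside genotype, 9 of the 28 had an unadjusted p below 0.05, against 4953 of the 17233 tested genes. In that edgeR fit Acaca (adjusted p = 0.045) and Stard4 (0.0453) passed and Scap (0.0694) did not, with 1338 genes called in all.

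The other 25 genes had log2 fold changes between -0.32 for Hsd17b7 and 0.45 for Insig1, with adjusted p from 0.203 to 0.989 by edgeR. Above 0 were 21 of the 28 genes, against 49.1% of all tested genes, and the median was 0.24, against -0.0073 over all tested genes. Leaving out the KO library of day 36 gave a median of 0.09, leaving out that of day 42 gave 0.44, leaving out that of day 33 gave 0.16, and leaving out the WT library of day 42 gave 0.15. The desaturases differed from each other in value, at 0.44 ± 0.23 for Scd2 and -0.02 ± 0.25 for Scd1. The X-linked genes of the set, Nsdhl (-0.04 ± 0.29) and Ebp (-0.01 ± 0.11), lay near 0 over the 3 days. Both were higher in KO on day 36 (0.17 and 0.20) and lower on day 42 (-0.36 and -0.25). The part of the culture's sex in the genotype values was not tested. The 10 cell division markers summed to 915, 1110 and 1200 CPM in KO and 550, 534 and 583 CPM in WT. All KO libraries lay above all WT libraries for 10 of 10, against 17.2% of all tested genes. All 10 were called higher by edgeR, against 4.07% of all tested genes. Without KO day 36, that test called 2 genes higher in the whole table. The part of cell division in the genotype values was not tested.

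**Figure D4:**
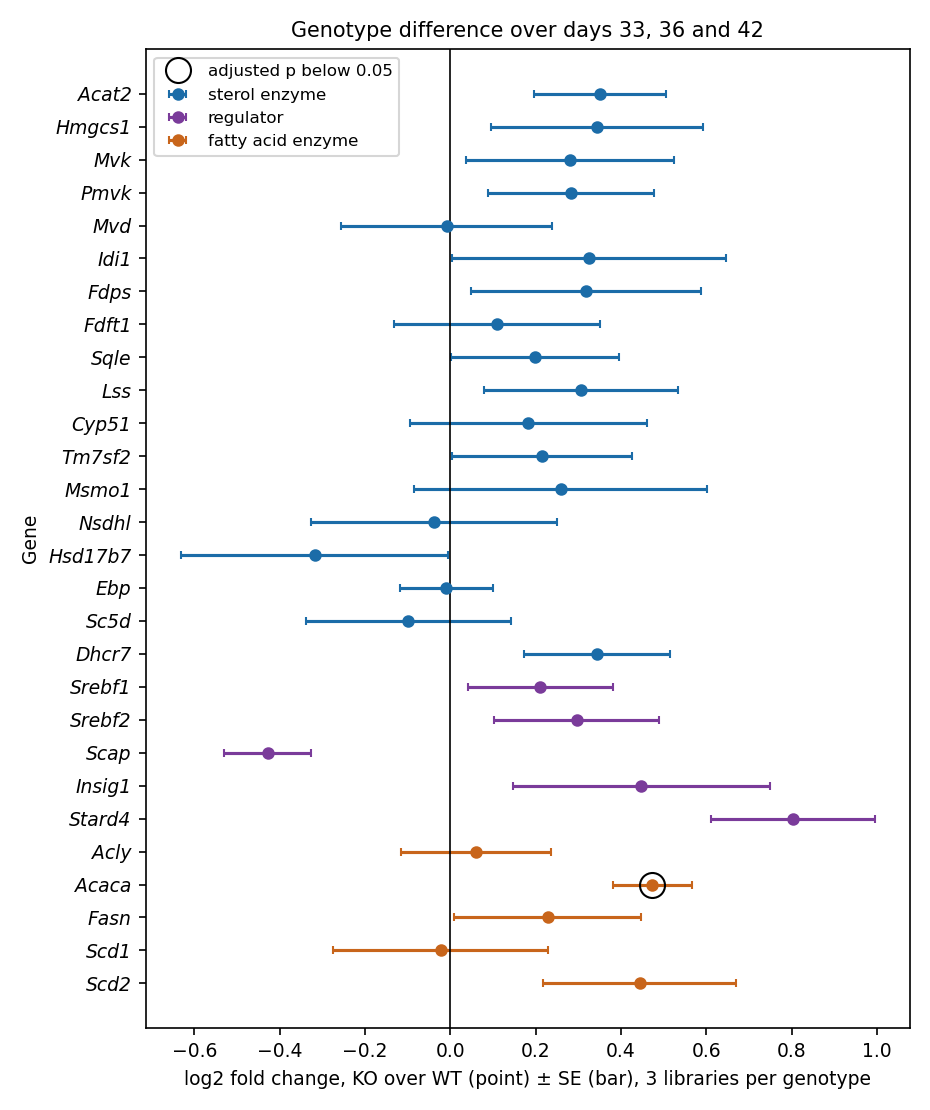
log2 fold change of KO over WT for each of the 28 genes (points) with its SE (bars), from 3 libraries per genotype, coloured by role. The black ring marks Acaca, at 0.47 the gene with an adjusted p below 0.05, while Stard4 at 0.80 is farthest right and Scap at -0.43 farthest left.

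On single days the genotype difference was largest on day 36 and near 0 on day 42. On day 33, KO was higher for 21 of the 28 genes (50.7% of all genes), with a median log2 difference of 0.19. On day 36, KO was higher for 26 of the 28 genes (50.4% of all genes), with a median of 0.40. Stard4 was the 1 gene of the 28 at least 2-fold higher on that day, against 2.96% of all genes, at 2.22 times its WT level, and Dhcr7 (1.73 times), Insig1 (1.65 times) and Tm7sf2 (1.61 times) followed. Hsd17b7 and Scap were the exceptions, lower in KO on day 36, and 0 of the 28 were 2-fold lower, against 4.67% of all genes. On day 42, KO was higher for 11 of the 28 genes (51.8% of all genes), with a median of -0.02. Stard4 (0.60) and Acaca (0.45) had the highest values on day 42, and Hsd17b7 (-0.68), Scap (-0.43) and Tm7sf2 (-0.42) had the lowest. None of the 28 genes reached 2-fold on day 33 (2.47% of all genes higher and 4.1% lower) or on day 42 (3.03% higher and 6.5% lower).

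Neighbouring pathways were described from lists that hold none of the 28 genes, and their counts of called genes stand beside 4.07% of all tested genes called higher and 4.65% called lower. Of 9 tested enzymes that use isoprene units for other products, 0 passed the genotype test in edgeR, and their median trend with day was 0.04. Among the lowest genotype p-values there were those of the farnesyltransferase subunit Fntb (0.42 ± 0.10, adjusted p = 0.0539 by edgeR) and of Pdss1 and Pdss2, prenyl chain enzymes with log2 fold changes of 0.50 and 0.21. Idi2, the tenth on that list, was not tested. Of 12 genes for SREBP processing and sterol-regulated protein degradation, 0 rose and 1 fell in KO, near the 8.72% called among all tested genes, and the median trend was 0.0046. The one that fell was Insig2, the second Insig protein, at 35.5, 39.5 and 38.1 CPM in KO and 55.0, 53.2 and 54.0 CPM in WT (log2 fold change -0.52 ± 0.08, adjusted p = 0.0169 by edgeR). Insig2 thus lay below WT on each day, and its fitted change with day was 0.03 ± 0.10, set beside -0.74 ± 0.26 for Insig1. Fbxw7, which marks nuclear SREBPs for destruction, was at -0.38 ± 0.11 (adjusted p = 0.0894 by edgeR), Mbtps2, a protease that releases SREBPs, at 0.21 ± 0.10, and Erlin1, which takes part in sterol-regulated degradation, at 0.29 ± 0.14.

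Of 23 genes for activating, elongating and desaturating fatty acids and building glycerolipids, 2 rose and 0 fell in KO, which is near the 8.72% called among all tested genes, and their median trend was -0.13. Of the 23, 17 had a fitted change with day below 0, and 6 of these had an unadjusted p below 0.05 by edgeR. Over all tested genes, 7.31% fell with day at that level. In KO, day 42 was lower than day 36 for 20 of the 23 (median -0.40), and in WT for 14 (median -0.08). Of all genes reaching 5 CPM, 51.4% were lower in KO and 51.7% in WT. Fads1 and Fads2, the desaturases of polyunsaturated fatty acids, were the 2 called higher in KO. Fads2 was at 124, 193 and 132 CPM in KO and 80.7, 87.5 and 78.4 CPM in WT (0.87 ± 0.18, adjusted p = 0.0362 by edgeR). Fads1 was at 228, 289.6 and 219.6 CPM in KO and 159.5, 162 and 153 CPM in WT (0.63 ± 0.12, adjusted p = 0.0309 by edgeR). Both shared the day 36 maximum in KO with most of the 28 genes. Acsl3, which activates fatty acids, was at 0.55 ± 0.15 (adjusted p = 0.0731 by edgeR) and Me1, the malic enzyme that supplies NADPH, at -0.37 ± 0.09 (adjusted p = 0.0587).

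Of 20 genes for exporting, storing and moving cholesterol, 0 rose and 2 fell in KO, again near that 8.72%, and their median trend was -0.06. Abcg1, a sterol exporter, was at 0.718, 0.336 and 0.279 CPM in KO and 5.98, 2.94 and 2.92 CPM in WT (log2 fold change -3.15 ± 0.48, adjusted p = 0.0174 by edgeR). Lipa, the lysosomal acid lipase, was at 83.8, 92.6 and 89.3 CPM in KO and 131, 115 and 135 CPM in WT (-0.52 ± 0.09, adjusted p = 0.0243 by edgeR). The lipoprotein receptors Lrp8 (1.06 ± 0.29, adjusted p = 0.0761) and Vldlr (-0.87 ± 0.25, adjusted p = 0.0797 by edgeR) did not pass. The calls of Insig2, Fads1, Fads2, Abcg1 and Lipa were all lost when the KO library of day 36, the KO library of day 42 or the WT library of day 33 was left out, and those of Fads1 and Fads2 also when either of the other WT libraries was. Of 8 adipocyte markers, Adipoq, Plin1, Cfd and Cidec were at or below 0.0289 CPM in every library, and the 8 summed to 6.31 to 22.0 CPM in KO and 28.6 to 44.8 CPM in WT. All 3 that were tested had a log2 fold change below 0, and the lipase gene Lpl fell (-3.17 ± 0.53, adjusted p = 0.0212 by edgeR), a call lost without KO day 36, KO day 42, WT day 33 or WT day 36. The part of these markers in the genotype values was not tested.

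**Figure D5:**
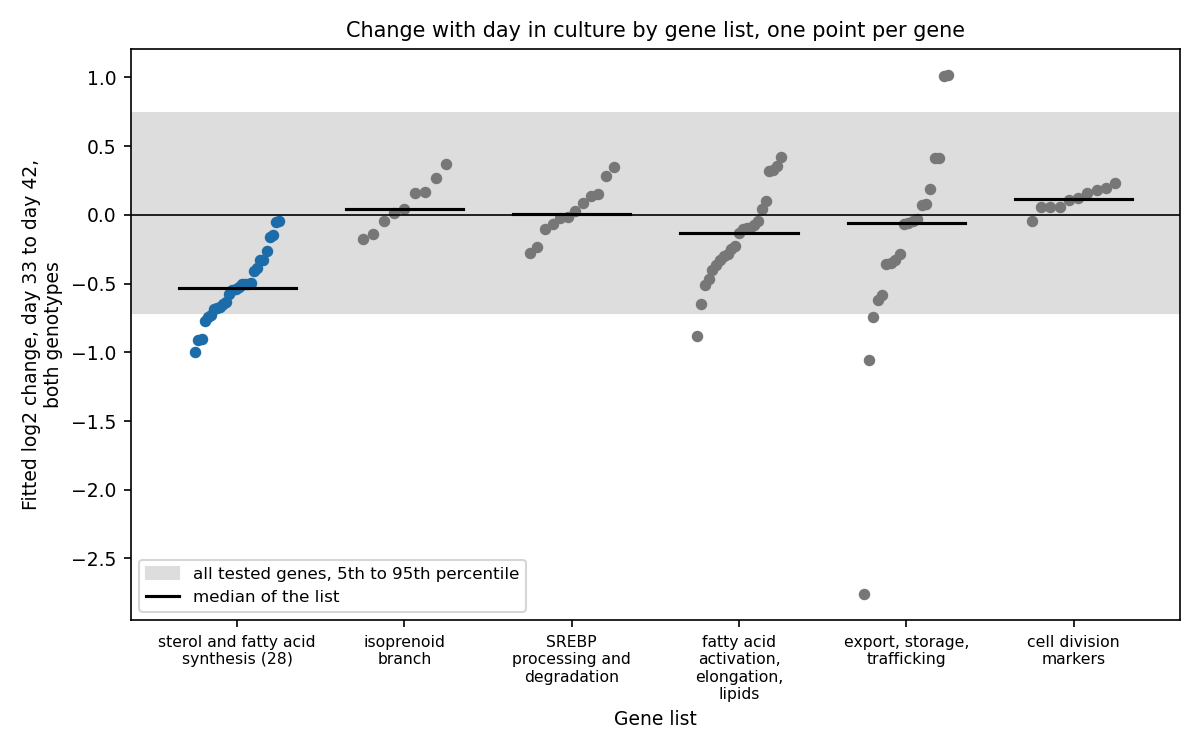
Fitted log2 change over the 9 days between day 33 and day 42 for each tested gene of 6 lists, sorted within the list, with the median as a black line and the 5th to 95th percentile of all tested genes as a grey band. All 28 synthesis genes lie below 0 with a median of -0.53, whereas the medians of the isoprenoid, SREBP processing, fatty acid activation, export and cell division lists are 0.04, 0.0046, -0.13, -0.06 and 0.12. In the same order, 3 of 9, 6 of 12, 17 of 23, 13 of 20 and 1 of 10 genes of these lists lie below 0.

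The Srebf1 gene has several transcripts, and the deposited transcript table splits its counts between them by estimation. The transcript ENSMUST00000020846, with the most counts, took 53.0, 35 and 45.1% of the gene's counts in KO and 49.6, 51.1 and 46.4% in WT. The difference of -4.66 percentage points did not pass an exact two-sided permutation test (p = 0.6), and it was 0.0167 without KO day 36. ENSMUST00000144942 took 31.1, 34.4 and 30.4% in KO and 34.4, 35 and 35.5% in WT (exact p = 0.1, the smallest that 3 against 3 allows). ENSMUST00000134660, singled out after its values were seen, held 86, 411 and 190 counts in KO and 0, 8 and 48 counts in WT, or 2.33, 15.7 and 6.84% of the gene in KO and 0.0, 0.234 and 1.80% in WT (exact p = 0.1). Its KO values lay above its WT values on each day.

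Several values rest on how reads were shared with near-identical copies. Over at least 500 bases at 95% identity or more, Fdps, which makes farnesyl units, matched the processed pseudogenes Gm3571, Gm5873 and Gm8163, which held 1644, 1475 and 1419 counts over the 6 libraries while Fdps itself held 1243. The low level of Fdps is therefore uncertain. Fdps and Gm3571 together were at 16.2, 19.1 and 11.2 CPM of the library total in KO and 12.4, 10.8 and 9.57 in WT, so that day 42 stayed the lowest day of each genotype, but WT and not KO day 42 was the lowest of the 6 libraries. Idi1 matched Gm13502 over 684 bases, Acat2 matched Acat3 at 97.7% identity, Fdft1 matched Gm6781 at 97.4%, and a stretch of Scd2 matched Scd1 at 95.5%. Transcripts of Fdft1 also overlap Ctsb, which held 162632 counts against 12493 for Fdft1. Acaca matched the processed pseudogene Gm5182 at 99.2% identity over 6118 bases. Gm5182 was not found among the 45706 genes, so reads shared with it could not be examined.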

How the data were processed

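RNA of 24 samples of primary MEFs was sequenced from libraries made with a stranded mRNA kit, per the labels' protocols. The authors deposited estimated counts for genes and for transcripts, with fractions and without normalization, as their values show; 48 further columns of per-sample values were left unused. Bowtie2 2.2.1, limma 3.18.13 and the mouse build mm10 appear in the submitters' processing notes, which give them no role. How reads were counted, with which annotation and strand setting, is not given in the sources used here. Gene starts are printed as deposited and lie 2 bases before the annotated start.

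The 4 columns of each genotype and day were compared first. Over genes with at least 80 counts, their mean chi-square per degree of freedom was 0.832 to 0.843, against 9.36 to 73.5 between columns of different groups, so they were summed, rounded to whole numbers and counted as 1 library. Libraries held 25650577 to 48716880 counts. CPM are counts scaled by the library total times its TMM factor (0.927 to 1.08). The library total alone scaled Mb21d1, Xist, Uty, the sums over gene lists and the adipocyte markers near 0. Genes were filtered with filterByExpr, which left 17233 of 45706, and tested with edgeR 4.0.16 in R 4.3.3 (robust quasi-likelihood test, Benjamini-Hochberg adjustment over all tested genes, threshold 0.05) for genotype, for a trend with day beside genotype, and for their interaction. The SE of a log2 fold change is its size divided by the square root of the F statistic, which is approximate. Single libraries were compared on log2 CPM with a prior count of 2. The alternatives tried were other size factors, DESeq2 1.42.0, limma-voom from limma 3.58.1, no filter, libraries, days or columns left out, day as a factor, and 24 columns with and without a replicate block. Near-identical copies were searched with BLASTN 2.17.0. The test scripts were tested on simulated data. Shares of transcripts were compared by an exact permutation test.

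The 28 genes, the other lists and the tests were chosen with earlier results of these data known. All 28 genes are named; of each neighbouring list, up to 4 genes were named by lowest genotype p, and 1 gene that this rule names is not reported here.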

Additional observations from a re-analysis of the deposited data

Results flagged for a closer look

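Between day 33 and day 36 the medians of the 28 synthesis genes had opposite signs in KO and WT, although genes of either sign were present in both genotypes. The median log2 difference of day 36 minus day 33 was 0.165 in KO and -0.0944 in WT, with 1 library on each day in each genotype, and the difference between the genotypes was not tested.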

How the results depend on the processing

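With edgeR, 1503 genes and 1 of the 28 synthesis genes were called between genotypes. DESeq2 called 2855 and 3, and edgeR with day as a factor beside genotype called 1338 and 2. Leaving out 1 library or 1 day gave 3 to 1811 genes and 0 to 2 of the 28, with 3 genes left without day 36 and 24 without KO day 36 alone. Treating the 24 columns as separate samples gave 11107 genes and 26 of the 28 without a block, and 11103 and 26 with the replicate block. The replicate numbers do not pair the samples, since correlations of deviations between columns with the same number were -0.0279 to 0.0403. Without column 1 or without column 3, 2 of the 28 were called. For the trend with day and for its difference between genotypes edgeR called 0 genes throughout, while DESeq2 called 465 genes (8 of the 28) and 129 genes. Day 42 minus day 36 with day as a factor was a fit added after the data were seen. There 22 of the 28 genes had an unadjusted p below 0.05 by edgeR, against 12.8% of all tested genes. The log2 change in that fit was below 0 for 27 of the 28 genes and was 0.019 for Ebp. With 1.5-fold in place of 2-fold, KO against WT had 1 of the 28 genes lower on day 33, against 8.01% of all genes. On day 36, 9 were higher, against 8.97%. On day 42, 1 was higher, against 10.4%, and 1 was lower, against 12.9%. For day 42 against day 36, 20 passed as lower in KO, against 2.13% of all genes, and 2 in WT, against 7.98%.

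Signs turned when 1 library, day or column was left out for genes near 0. The genotype log2 fold change ranged from -0.23 to 0.22 for Mvd, -0.14 to 0.32 for Fdft1, -0.035 to 0.50 for Tm7sf2, -0.28 to 0.22 for Nsdhl, -0.11 to 0.11 for Ebp, -0.26 to 0.12 for Sc5d, -0.088 to 0.20 for Acly and -0.16 to 0.22 for Scd1. The trend ranged from -0.60 to 0.30 for Tm7sf2, -0.26 to 0.10 for Ebp and -0.15 to 0.024 for Acaca. The share of the leading Srebf1 transcript, KO minus WT, ranged from -8.98 to 0.0167 percentage points. The causes were not tested. Among 1442 gene values under alternatives, 1248 kept direction and side of the threshold. The 28 genes held at least 1243 counts each over the 6 libraries, and the number of libraries, 3 per genotype with 1 per day, limits the precision.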
